A study of Homo sapiens with 6 samples.

Results

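The 10 genes described here are the G1 cyclins, kinases and inhibitors of the retinoblastoma checkpoint: the D cyclins CCND1, CCND2 and CCND3, their kinases CDK4 and CDK6, the inhibitors CDKN1A, CDKN1B, CDKN2B and CDKN2C, and RB1. They were taken by gene symbol from the 21463 genes of the deposited tables, and all 10 were present. The study profiled polyadenylated RNA of 3 EGFR-mutant non-small cell lung cancer cell lines, each as a derivative grown resistant to a kinase inhibitor of EGFR and as its parental line. HCC827-GR and HCC827 carry the exon 19 deletion of EGFR, labelled E19Del, as do PC9-GR and PC9, and both GR sublines were selected with gefitinib. H1975-OR and H1975 carry the L858R/T790M pair, and H1975-OR was selected with osimertinib, an inhibitor of later generation that also acts on the T790M form. Selection ran for 90 days under increasing drug. The labels give IC50 values of 4.288 to 12.485 µM in the resistant sublines, against 0.016 to 0.07 µM in the parental cells. Each line gave 1 resistant and 1 parental library, so a difference within a line has no replicate check, and a test across lines rests on 3 pairs. The labels do not say whether a subline is a clone, nor whether drug was present when RNA was taken, and the drug cannot be told apart from the line for osimertinib.

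In early G1, growth factor signals such as EGFR acting through RAS, MEK and ERK raise cyclin D1. D cyclins bind CDK4 or CDK6, and the active kinase phosphorylates RB, which then lets go of E2F factors that switch on genes for DNA replication. Inhibitors of the INK4 group bind CDK4 and CDK6 and keep cyclins away, while those of the CIP/KIP group bind assembled cyclin and kinase complexes and restrain CDK2. In EGFR-mutant lung cancer cells, an EGFR inhibitor that still works lowers cyclin D1 and stops cells in G1.

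The libraries held 21222102 to 29366085 reads in exons, of which 90.8% to 91.7% mapped uniquely, and mitochondrial genes took 3.32% to 6.86% of them. The labelled lung carcinoma origin was checked with 5 epithelial markers (EPCAM, CDH1 and keratins), all at 1 TPM or more in 5 libraries, where TPM is the deposited level scaled for transcript length and depth. In H1975-OR only 3 of 5 reached it, with EPCAM at 0.609 TPM and CDH1 at 0.0798 TPM, against 37.7 and 14.6 TPM in H1975. In HCC827-GR the same 2 markers were also lower, with EPCAM at 11.0 and CDH1 at 10.5 TPM, against 474 and 235 TPM in HCC827. The part of these epithelial differences in the results for either line was not tested. Of the lung lineage markers (NKX2-1, NAPSA, SFTPB, SFTA2, FOXA2), 3 of 5 were at 1 TPM or more in HCC827-GR and 5 of 5 in HCC827. The counts were 1 of 5 in PC9-GR and 0 of 5 in PC9, and 1 of 5 in H1975-OR and 3 of 5 in H1975. These lineage markers summed to 143 TPM in HCC827-GR against 814 in HCC827, 1.99 in PC9-GR against 0.987 in PC9, and 4.58 in H1975-OR against 13.0 in H1975. The summed level of the 5 epithelial markers was 1412 to 5334 TPM in resistant libraries and 2615 to 9791 TPM in parental libraries. The 6 leukocyte markers summed to 142 to 192 TPM in resistant and 65.5 to 209 TPM in parental libraries, most of it CD68 in every library. Among the others, CD14 had 18.5 TPM in H1975-OR and 15.9 in H1975, LYZ had 0.653 TPM in PC9-GR and 5.52 in PC9, and PTPRC and CD3E stayed at or below 0.135 and 0.318 TPM. The 4 endothelial markers summed to 0.307 to 2.87 TPM in resistant and 0.527 to 7.61 TPM in parental libraries. The 6 fibroblast markers summed to 6.86 to 57.6 TPM in resistant and 5.49 to 30.5 TPM in parental libraries, with COL1A1 the highest in each. In bulk RNA, fewer cells of a kind and less RNA per cell cannot be told apart.

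Promoter sequences are shown for CDK4, whose level sets HCC827 apart from the other lines, for CDK6, the kinase with the largest within-line difference, and for CDKN1A, the inhibitor that differed in opposite directions in 2 lines. Each runs 5′ to 3′ along the gene's strand from 250 bases before to 50 bases after the annotated start, from RefSeq on GRCh38.p14. A promoter was given there for 8 of the 10 members. Capitals mark the E-box CACGTG, a motif bound by MYC and its relatives, and the GC box GGGCGG, a motif bound by SP1 and KLF factors, which reads CCGCCC when it lies on the opposite strand. CDK4 (minus strand, chr12:57752261-57752560) held 3 E-boxes and 3 GC boxes, CDK6 (minus strand, chr7:92836524-92836823) held 1 and 3, and CDKN1A (plus strand, chr6:36678464-36678763) held 0 and 4, of which the last 2 overlap. The table has a further CDK6 start, at chr7:92833910-92834209, whose window held 0 of either motif and is not shown.
CDK4: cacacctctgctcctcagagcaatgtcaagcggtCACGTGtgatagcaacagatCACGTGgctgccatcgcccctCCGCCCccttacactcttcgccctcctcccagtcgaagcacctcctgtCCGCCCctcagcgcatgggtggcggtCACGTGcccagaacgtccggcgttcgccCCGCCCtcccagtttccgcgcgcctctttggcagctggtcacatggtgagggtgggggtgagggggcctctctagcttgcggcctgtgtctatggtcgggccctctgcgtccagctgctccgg
CDK6: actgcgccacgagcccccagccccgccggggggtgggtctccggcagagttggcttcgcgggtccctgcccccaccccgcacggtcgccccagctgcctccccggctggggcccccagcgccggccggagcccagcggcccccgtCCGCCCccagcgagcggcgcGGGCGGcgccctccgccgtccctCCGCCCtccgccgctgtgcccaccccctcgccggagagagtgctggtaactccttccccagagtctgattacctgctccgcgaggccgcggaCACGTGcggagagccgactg
CDKN1A: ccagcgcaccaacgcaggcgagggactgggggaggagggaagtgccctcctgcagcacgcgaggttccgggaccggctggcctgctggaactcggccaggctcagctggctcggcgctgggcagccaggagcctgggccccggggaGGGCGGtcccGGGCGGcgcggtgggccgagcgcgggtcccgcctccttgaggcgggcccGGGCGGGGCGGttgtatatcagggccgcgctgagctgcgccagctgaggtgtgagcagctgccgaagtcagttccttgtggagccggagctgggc
Over the 35116 promoters of the same length, 7.26% held at least 1 E-box and 0.0940% held at least 3, while 45.0% held at least 1 GC box and 15.8% at least 3. Both strands were searched. A match of letters is a description of the window, and binding was not measured here.

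Of the 10 members, 9 had enough reads for the test across lines and CCND2 did not. None of the 9 passed a Benjamini-Hochberg adjusted p of 0.05 in edgeR's quasi-likelihood test of resistant against parental libraries with the line as a block. The background was 0% as well, with 0 of 13541 genes called by edgeR, while 502 genes, or 3.71%, had an unadjusted p under 0.05, none of them a member. DESeq2 called 58 genes, or 0.428%, and limma-voom called 0, with 763 genes, or 5.63%, at an unadjusted p under 0.05. Neither called a member. Within lines, where no test is possible, a gene was counted as differing when its depth-scaled count (TMM-normalised CPM), with 1 CPM added, differed at least 2-fold and it reached 10 CPM in 1 of the 2 libraries. In HCC827-GR, 2 of 8 such members, CDK6 and CDKN2C, were at least 2-fold higher than in HCC827, beside a background of 10.5% of genes in that direction. In PC9-GR, CDKN1A alone of 8 members was at least 2-fold higher than in PC9, beside 2.41%. In H1975-OR, CDKN1A alone of 9 members was at least 2-fold lower than in H1975, beside 3.22%. CDK6 and RB1 were higher in the resistant library of all 3 lines, 2 of 9 tested members beside 14.3% of genes, and CCND1 was lower in all 3, 1 of 9 beside 13.5%.

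**Figure D1:**
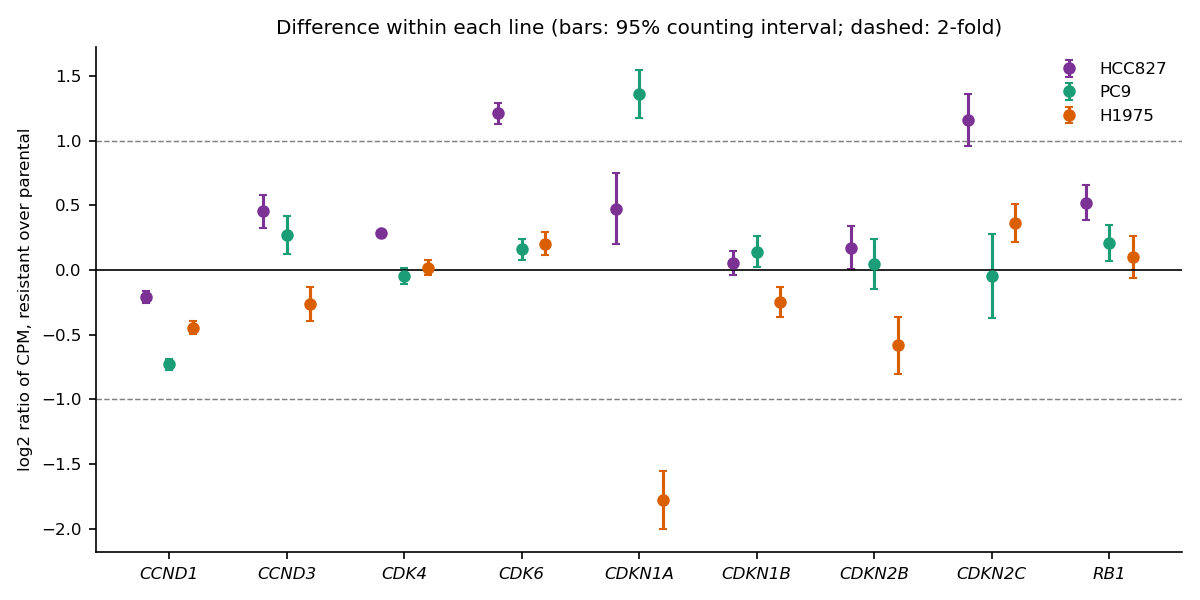
Log2 of the resistant over parental CPM ratio for the 9 members with reads in each line, with nothing added to the CPM. Each point is 1 pair of libraries, the bars are 95% Clopper-Pearson intervals for counting error and the dashed lines mark 2-fold; CDKN1A has a ratio of 1.39 for HCC827, 2.56 for PC9 and 0.292 for H1975, while CCND1 lies below 0 in all 3 lines.

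Cyclin D1 RNA was the most abundant of the D cyclin RNAs in every library, and it was lower in every resistant library than in its own parent. CCND1 (ENSG00000110092, chr11:69641087-69654474, hg38, plus strand) encodes the cyclin that couples mitogen signalling to CDK4 and CDK6. It had 272 CPM in HCC827-GR against 315 in HCC827, 305 CPM in PC9-GR against 505 in PC9, and 203 CPM in H1975-OR against 276 in H1975. The groups overlap on this scale, since PC9-GR lies above H1975, while each pair differs the same way. The ratio was 0.865 for HCC827 (0.838 to 0.892), 0.603 in PC9 (0.585 to 0.622) and 0.734 in H1975 (0.709 to 0.760), with 95% Clopper-Pearson intervals that cover counting error only. In edgeR's test across lines the log2 fold change was -0.46 ± 0.20 (SE, 3 pairs) with adjusted p = 0.903, which does not pass, although the direction held in 3 of 3 lines. On the deposited TPM scale the ranges separated, at 153 ± 18.1 TPM in resistant libraries and 225 ± 59.9 TPM in parental libraries (SD, n = 3 each), with a highest resistant value of 174 and a lowest parental value of 179. Such a separation in that direction was seen for 1.5% of the 13541 genes.

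Intron reads, which come mostly from RNA not yet spliced, were also fewer for CCND1 in the resistant library of each line. They numbered 121 in HCC827-GR and 238 in HCC827, 189 in PC9-GR and 435 in PC9, and 289 in H1975-OR and 257 in H1975 before scaling to library size. The scaled ratios were 0.523 in HCC827 (0.417 to 0.653), 0.376 in PC9 (0.315 to 0.447) and 0.870 in H1975 (0.733 to 1.03), so the interval for H1975 includes equality. Reads across exon junctions gave 0.793, 0.564 and 0.692 in HCC827, PC9 and H1975. Between 64.1% and 80.9% of CCND1 exon reads mapped uniquely, and the gene LTO1 overlaps its end.

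Cyclin D3 supplied most of what remained of the D cyclins. CCND3 (chr6:41934933-42050357, minus strand), which binds the same kinases, had 42.1 CPM in HCC827-GR against 30.8 in HCC827, 37.2 in PC9-GR against 30.8 in PC9, and 32.3 in H1975-OR against 38.7 in H1975. It was therefore higher in both gefitinib-selected sublines and lower in H1975-OR, with ratios of 1.37 (1.25 to 1.497), 1.21 (1.09 to 1.34) and 0.834 (0.761 to 0.913). Over the 3 pairs edgeR gave a log2 fold change of 0.15 ± 0.22 (SE) with adjusted p = 0.933. CCND2 (chr12:4273772-4305350, plus strand), the D cyclin prominent in haematopoietic and germ cells, had 4 reads in HCC827-GR, none of them unique, and 0 reads in the other 5 libraries. A count of 0 allows up to 0.0983 to 0.145 CPM in these libraries, so no ratio was formed.

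Per transcript length, CCND1 made up 86.7%, 89.2% and 86.4% of the D cyclin TPM in HCC827-GR, in PC9-GR and in H1975-OR, against 91.2%, 94.3% and 87.8% in HCC827, PC9 and H1975. The ratio of CCND1 to CCND3 TPM was 6.54 in HCC827-GR against 10.3 in HCC827, 8.27 in PC9-GR against 16.5 in PC9, and 6.35 in H1975-OR against 7.21 in H1975. It was lower in the resistant library of each line. The order of the D cyclins, with CCND1 above CCND3 above CCND2, was the same in all 6 libraries. The 4 summed inhibitors amounted to 0.606 of the summed D cyclin TPM in HCC827-GR against 0.465 in HCC827. The same ratio was 0.544 in PC9-GR against 0.252 in PC9, and 0.579 in H1975-OR against 0.560 in H1975. The inhibitor sum itself was 103 TPM in HCC827-GR against 91.6 in HCC827, and 106 in PC9-GR against 78.4 in PC9. In H1975-OR it was lower, at 93.4 TPM against 130 in H1975. CDKN2A is not one of the 10 members and is not in this sum.

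**Figure D2:**
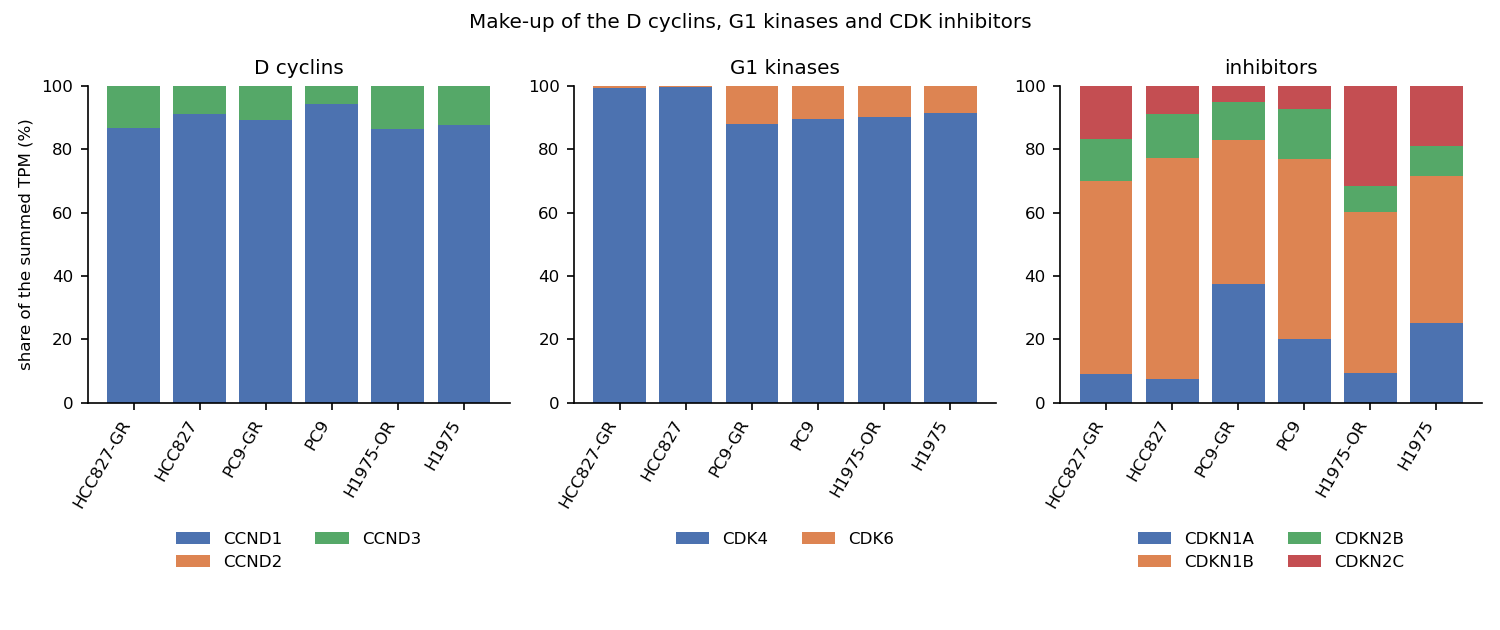
Shares of summed TPM within the D cyclins, within the kinases and within the 4 inhibitors, in percent, for each library. CCND1 holds 86.4% to 94.3% of the D cyclin TPM, and CDK4 holds 99.4% and 99.7% of the kinase TPM in HCC827-GR and HCC827 but 88.1% to 91.3% in the other 4 libraries.

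CDK4 RNA was among the most abundant in both HCC827 libraries, and it differed far more between HCC827 and the other lines than between resistant and parental cells of a line. CDK4 (chr12:57747727-57756013, minus strand) encodes the kinase that cyclin D1 activates. It had 5169 CPM in HCC827-GR against 4233 in HCC827, 186 in PC9-GR against 193 in PC9, and 181 in H1975-OR against 178 in H1975. The lower HCC827 value was 22.0 times the highest value of the other 4 libraries. In TPM, CDK4 ranked 29th of all genes in HCC827-GR and 35th in HCC827, against ranks of 606 to 766 in the other 4 libraries. Within lines the ratio was 1.22 for HCC827 (1.21 to 1.23), 0.966 for PC9 (0.926 to 1.01) and 1.01 for H1975 (0.973 to 1.05). The last 2 intervals include equality. For PC9 the ratio was 0.919 (0.876 to 0.964) with unique reads and 0.923 (0.878 to 0.971) with junction reads, both below equality. For H1975 these were 0.986 (0.943 to 1.03) and 0.976 (0.931 to 1.02), and for HCC827 they were 1.21 and 1.20. Over the 3 pairs edgeR gave a log2 fold change of 0.09 ± 0.21 (SE) with adjusted p = 0.962. From 78.1% to 84.0% of CDK4 exon reads mapped uniquely, and the genes TSPAN31 and MARCH9 overlap it.

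**Figure D3:**
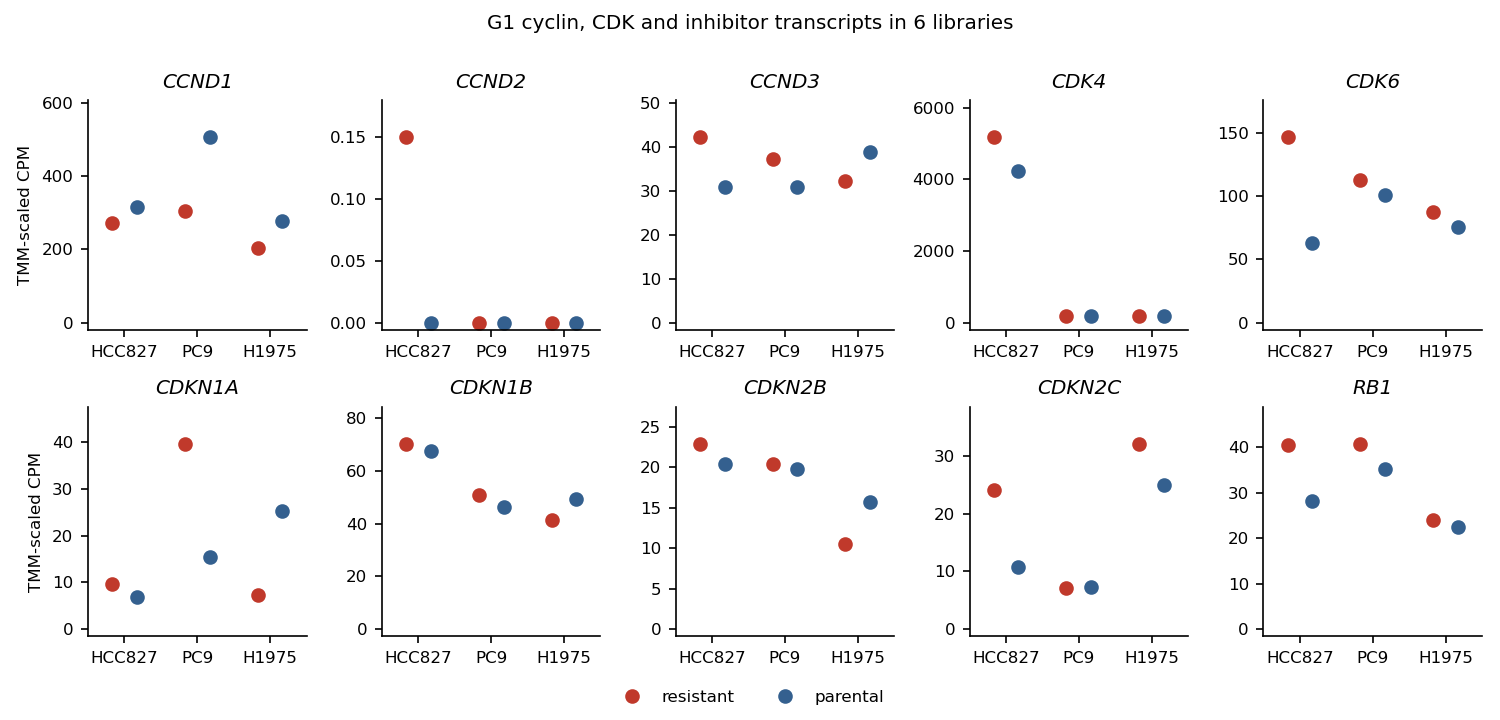
TMM-normalised CPM of the 10 members in the 6 libraries, on a linear axis of its own for each gene, with 1 point per library and resistant left of parental in each line. CDK4 stands at 5169 and 4233 CPM in HCC827-GR and HCC827 and at 178 to 193 CPM elsewhere, and CDKN1A moves in opposite directions in PC9 and H1975.

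A level at least 8-fold above each of the other 4 libraries in both HCC827 libraries was found for 69 of 11477 genes, or 0.601%. The genes within 500 kb of CDK4 on chromosome 12 were then examined, a window chosen after the levels were seen. Of its 18 measured genes, CDK4 itself, PIP4K2C, which encodes a phosphoinositide kinase, and OS9, which encodes a lectin of endoplasmic reticulum quality control, met that 8-fold mark. TSPAN31, which encodes a tetraspanin, stood 7.24-fold above, but it overlaps CDK4, 81.5% of its reads in HCC827 cells were unique, and whether reads of CDK4 were counted for it was not tested. OS9 had 5078 CPM in HCC827-GR and 3230 in HCC827 with no more than 230 CPM elsewhere, with a lowest-over-highest ratio of 14.1. PIP4K2C had 1007 CPM in HCC827-GR and 1680 in HCC827, a ratio of 8.60. For the other 14 genes that ratio was at most 2.17, seen for MARCH9, and it was 0.959 for METTL1, 0.920 for TSFM and 0.0271 for B4GALNT1, genes that lie on either side. Between PIP4K2C and CDK4 lie DTX3, ARHGEF25, B4GALNT1 and AGAP2, which show no such gap, with ratios of 0.671, 0.519, 0.0271 and 1.74. Each of them had no more than 21.3 CPM in either HCC827 library. DNA copy number was not measured here, and its part in these levels was not tested.

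**Figure D4:**
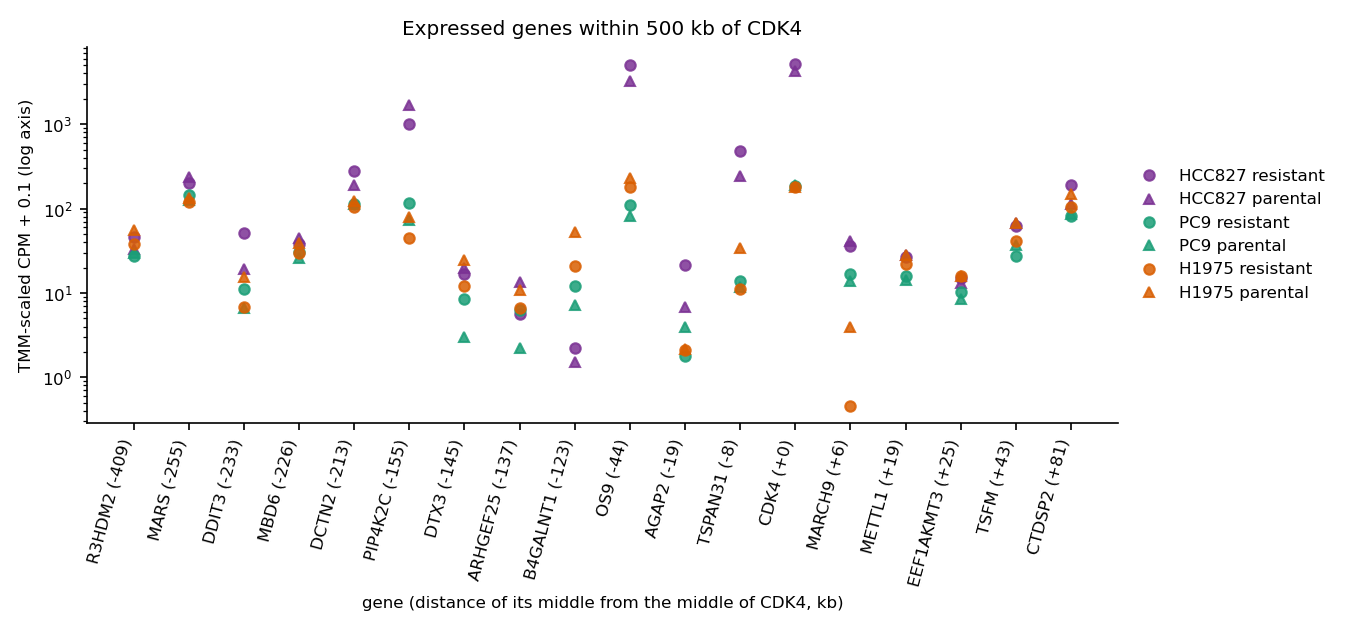
CPM of the 18 measured genes within 500 kb of CDK4, in their order along the chromosome with the distance of each gene's middle from that of CDK4 in kb, on a log axis with 0.1 CPM added. Circles are resistant and triangles parental libraries, and in PIP4K2C, OS9, TSPAN31 and CDK4 both HCC827 points stand at least 7.24-fold above every other point.

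CDK6 differed between resistant and parental cells mainly in HCC827. CDK6 (chr7:92604921-92836594, minus strand), the partner kinase of CDK4, had 146 CPM in HCC827-GR against 63.3 in HCC827, 113 in PC9-GR against 101 in PC9, and 87.3 in H1975-OR against 75.8 in H1975. It was higher in the resistant library of each pair, with ratios of 2.31 (2.19 to 2.45), 1.12 (1.05 to 1.18) and 1.15 (1.08 to 1.22). Over the 3 pairs edgeR gave a log2 fold change of 0.52 ± 0.27 (SE) with adjusted p = 0.903, and without the HCC827 pair the fold change was 0.18. In TPM, resistant libraries had 25.4 ± 3.71 and parental libraries 18.8 ± 4.61 (SD, n = 3 each), with a lowest resistant value of 22.5 and a highest parental value of 22.0. That separation was seen for 0.783% of genes in this direction, and on the CPM scale the groups overlapped. The ratio of CDK4 to CDK6 TPM was 158 in HCC827-GR against 299 in HCC827, 7.38 in PC9-GR against 8.53 in PC9, and 9.25 in H1975-OR against 10.5 in H1975.

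Around CDK6 on chromosome 7 the other genes did not move with it in HCC827. Its log2 ratio there was 1.20, while the 9 measured genes among the nearest 5 on each side had a median of -0.96 and a range of -4.59 to -0.30. In PC9 and H1975 the CDK6 log2 ratios were 0.16 and 0.20, beside neighbour medians of -0.16 and -0.49. Very few CDK6 reads crossed an exon junction, and the share followed the cell line. It was 1.64% in HCC827-GR against 1.32% in HCC827, 2.70% in PC9-GR against 3.63% in PC9, and 6.61% in H1975-OR against 5.87% in H1975, while the median gene had 45.9% to 52.1% per library. With 64 and 23 junction reads in HCC827-GR and HCC827 the ratio was 2.86 (1.75 to 4.83), and with intron reads it was 1.58 (1.16 to 2.15). In PC9 the junction ratio was 0.831 (0.595 to 1.16) and the intron ratio 0.683 (0.509 to 0.914), so these reads did not show the small excess seen in PC9-GR exons.

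CDKN1A RNA differed most among the inhibitors, and in opposite directions. CDKN1A (chr6:36676460-36687339, plus strand) encodes p21, a CIP/KIP inhibitor that p53 induces after DNA damage and that arrests cells. It had 9.65 CPM in HCC827-GR against 6.94 in HCC827, 39.7 in PC9-GR against 15.5 in PC9, and 7.34 in H1975-OR against 25.2 in H1975. The highest library was thus PC9-GR, while the lowest values were in HCC827 and H1975-OR. The ratio was 1.39 in HCC827 (1.15 to 1.68), 2.56 in PC9 (2.26 to 2.92) and 0.292 in H1975 (0.249 to 0.341). Over the 3 pairs edgeR gave a log2 fold change of 0.06 ± 0.69 (SE) with adjusted p = 0.992. Junction reads went the same way, with a ratio of 1.87 (1.09 to 3.30) for HCC827, 1.96 (1.44 to 2.69) for PC9 and 0.313 (0.209 to 0.460) for H1975. Intron reads, at 19 or fewer a library, gave intervals that all include equality.

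CCND3, CDKN1A, CDKN1B and CDKN2B were higher in both gefitinib-selected sublines and lower in H1975-OR than in their parents, 4 of 9 tested members beside 26.8% of genes that differed one way in both gefitinib lines and the other way in H1975. For 2 of the 4 this rests on a sign near 0: the log2 ratio of CDKN1B in HCC827 was 0.06, but -0.05 with library size alone and -0.02 in TPM, and that of CDKN2B in PC9 was 0.04, but -0.09 with unique reads. The difference in response between the gefitinib-selected pairs and the osimertinib-selected pair was tested directly, with 1 residual degree of freedom. That degree of freedom comes from HCC827 against PC9, so the SEs hold no replicate spread for the osimertinib-selected pair. For CDKN1A it was 2.70 ± 0.72 (log2, SE) in edgeR with adjusted p = 1.00, and DESeq2 gave 2.72 with adjusted p = 0.328. No gene was called by edgeR, a background of 0%, while 434 genes, or 3.21%, had an unadjusted p under 0.05, and DESeq2 called 72 genes, or 0.532%. CDKN1A was the only one of 9 members with an unadjusted p under 0.05 in edgeR. For CCND3, CDKN1B and CDKN2B the difference was 0.62 ± 0.49, 0.35 ± 0.42 and 0.69 ± 0.59 (log2, SE), all with adjusted p = 1.00 in edgeR. Drug, EGFR genotype and cell line change together in this contrast and cannot be told apart.

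CDKN1B was the most abundant of the 4 inhibitors in TPM in every library, with resistant over parental ratios between 0.842 and 1.10. CDKN1B (chr12:12715058-12722371, plus strand) encodes p27, which holds CDK2 inactive in resting cells and is controlled largely by protein turnover. It had 70.3 CPM in HCC827-GR against 67.6 in HCC827, 51.0 in PC9-GR against 46.2 in PC9, and 41.5 in H1975-OR against 49.3 in H1975. The ratios were 1.04 (0.974 to 1.11), 1.10 (1.01 to 1.20) and 0.842 (0.777 to 0.913). Over the 3 pairs edgeR gave -0.02 ± 0.18 (log2, SE) with adjusted p = 0.992. It held 61.1%, 45.5% and 50.6% of the TPM of the 4 inhibitors in HCC827-GR, in PC9-GR and in H1975-OR, against 69.7%, 56.7% and 46.4% in HCC827, PC9 and H1975. CDKN1A held 37.5% of it in PC9-GR against 20.1% in PC9, and 9.49% in H1975-OR against 25.1% in H1975.

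CDKN2C was higher in HCC827-GR than in HCC827 and differed more between lines than within them. CDKN2C (chr1:50960745-50974633, plus strand) encodes p18, an INK4 inhibitor of CDK4 and CDK6. It had 24.2 CPM in HCC827-GR against 10.8 in HCC827, 7.13 in PC9-GR against 7.37 in PC9, and 32.2 in H1975-OR against 25.0 in H1975. PC9 cells had the lowest levels in both states. The ratios were 2.23 (1.94 to 2.57), 0.967 (0.773 to 1.21) and 1.29 (1.16 to 1.43), and edgeR over the 3 pairs gave 0.49 ± 0.32 (log2, SE) with adjusted p = 0.903, or 0.16 without the HCC827 pair. In HCC827 the intron ratio was 2.70 (1.66 to 4.52) and the junction ratio 2.04 (1.51 to 2.79). In PC9 they were 0.865 (0.259 to 2.89) and 1.56 (0.935 to 2.65). In H1975 they were 0.784 (0.560 to 1.10) and 1.17 (0.931 to 1.46). All intervals for PC9 and H1975 include equality, so these reads did not show the excess seen in H1975-OR exons. When reads were scaled by library size alone the log2 ratio in HCC827 was 0.99, just under the 2-fold line.

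CDKN2B could be measured with little confidence. CDKN2B (chr9:22002903-22009363, minus strand) encodes p15, the INK4 inhibitor that TGF-beta induces, and it had 22.9 CPM in HCC827-GR against 20.3 in HCC827, 20.4 in PC9-GR against 19.8 in PC9, and 10.5 in H1975-OR against 15.6 in H1975. The ratios were 1.13 (1.00 to 1.27), 1.03 (0.903 to 1.18) and 0.669 (0.574 to 0.779), and edgeR gave -0.12 ± 0.26 (log2, SE) with adjusted p = 0.958. Only 1.88% to 4.39% of its exon reads were unique, and the tables list AL359922.1 over the same place. The unique reads numbered 16 in HCC827-GR and 13 in HCC827, 18 in each of PC9-GR and PC9, and 6 in H1975-OR and 14 in H1975. Its neighbour CDKN2A, which encodes p16 and ARF and was not one of the 10, had 212 CPM in HCC827-GR against 248 in HCC827, 104 in PC9-GR against 119 in PC9, and 11.7 in H1975-OR against 9.75 in H1975.

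RB1 was present in all 6 libraries. RB1 (chr13:48303726-48599436, plus strand) encodes the pocket protein on which the other members act, and its loss makes cells insensitive to CDK4 and CDK6 inhibition. It had 40.4 CPM in HCC827-GR against 28.2 in HCC827, 40.8 in PC9-GR against 35.3 in PC9, and 24.1 in H1975-OR against 22.5 in H1975. It was higher in each resistant library, with ratios of 1.43 (1.31 to 1.57), 1.15 (1.05 to 1.27) and 1.07 (0.957 to 1.20), the last of which includes equality. Junction reads gave ratios of 1.61, 1.10 and 1.11 in the same order, and intron reads 1.40, 0.824 and 1.32. In PC9 the junction interval was 0.971 to 1.26 and the intron interval 0.676 to 1.01. Intervals of both kinds lay above equality in HCC827 only. Over the 3 pairs edgeR gave 0.28 ± 0.20 (log2, SE) with adjusted p = 0.903, or 0.15 without the HCC827 pair.

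**Figure D5:**
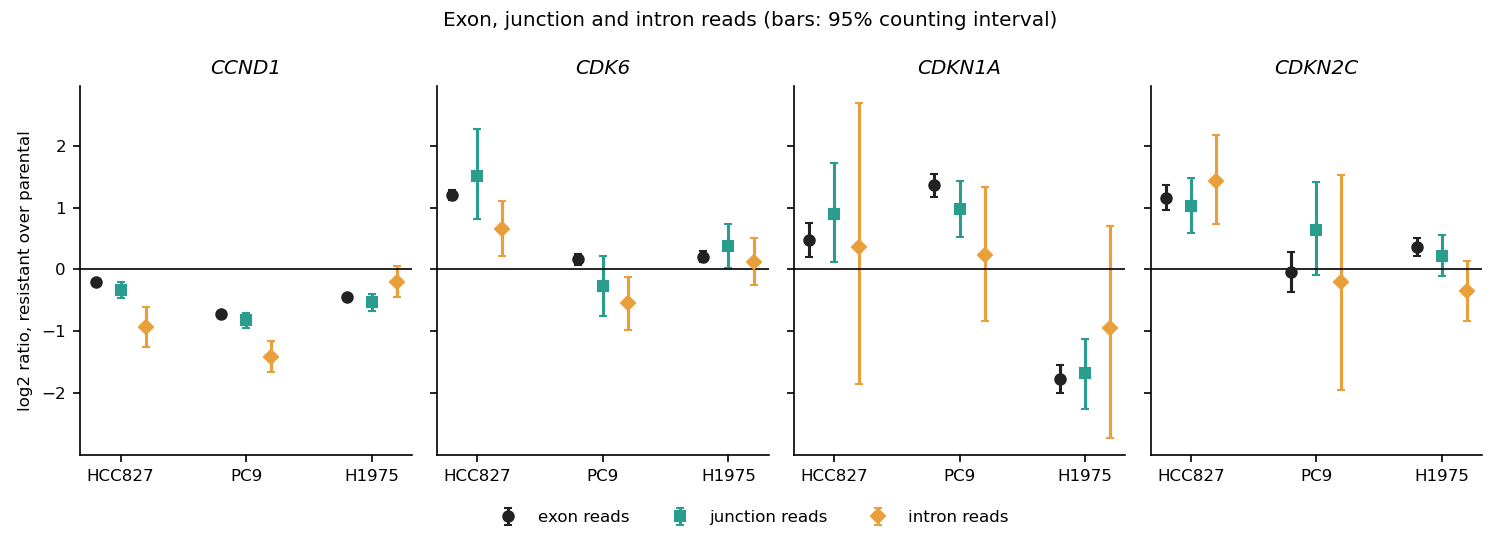
Log2 of the resistant over parental ratio from exon, junction and intron reads of CCND1, CDK6, CDKN1A and CDKN2C in the 3 lines, with bars for the 95% Clopper-Pearson counting interval. CCND1 lies below 0 for all 3 kinds of read in each line, and its intron interval in H1975, a ratio of 0.733 to 1.03, includes equality.

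The E2F side of the checkpoint was read from 30 E2F factors and E2F target genes, all tested. None was higher in the resistant library of all 3 lines and 9 were lower in all 3, beside 14.3% and 13.5% of all genes. edgeR called 0, and 2 of 30 had an unadjusted p under 0.05, beside 3.71%. The median log2 ratio was -0.55 for HCC827, -0.21 for PC9 and 0.13 for H1975, beside -0.01, -0.02 and 0.05 over all measured genes. At least 2-fold lower were 4 of 29 in HCC827-GR, beside 7.66% of genes, 0 of 30 in PC9-GR, beside 1.7%, and 1 of 30 in H1975-OR, beside 3.22%. E2F8, a repressor of the family, had a log2 ratio of -1.19 within HCC827, -0.21 within PC9 and -1.07 within H1975. RRM2, a subunit of ribonucleotide reductase, had -1.37, -0.16 and -0.66 in the same order, with 12.1% of its reads unique, and EZH2, the methyltransferase of Polycomb complex PRC2, had -1.02, -0.47 and -0.37. Proliferation itself was not measured here.

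Genes with known roles around the members were counted from lists in the same way, and edgeR's test across lines called none in any list. Over all tested genes, 14.3% were higher and 13.5% lower in all 3 lines. Of 18 other G1/S regulators, 1 was higher and 1 lower in all 3 lines. In HCC827-GR 1 of 15 was at least 2-fold higher and 1 lower, beside 10.5% and 7.66% of genes. In PC9-GR 0 of 15 differed 2-fold, beside 2.41% higher and 1.7% lower. In H1975-OR it was 0 of 15 as well, beside 1.75% and 3.22%. CDC37, the chaperone partner that loads CDK4, had a log2 ratio of 0.20 within HCC827, 0.25 within PC9 and 0.65 within H1975. CDKN1C, which encodes the CIP/KIP inhibitor p57, had 11.0 CPM in HCC827-GR against 2.58 in HCC827 and 0.584 to 2.12 CPM in the other lines. CDKN3, a phosphatase that acts on CDK2, had log2 ratios of -1.26, 0.08 and 0.37 in that order. Of 17 genes for turnover of cyclin D and p27, 2 were higher and 2 lower in all 3 lines. None of the 16 measured reached 2-fold in any line, beside the same shares of all genes in each line. There FBXW8, an F-box protein that targets cyclin D1, had log2 ratios of 0.82, 0.23 and 0.54, and CUL1, the scaffold of SCF ubiquitin ligases, had -0.82, -0.20 and -0.31. CKS2, a small CDK-binding protein, had -0.86, -0.04 and 0.07.

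Of 23 p53 target genes, 3 were higher and 2 lower in all 3 lines, beside the same 14.3% and 13.5%. At least 2-fold, 2 of 20 were higher and 4 lower in HCC827-GR, beside 10.5% and 7.66% of genes. In PC9-GR 1 of 16 was higher, beside 2.41%, and in H1975-OR 1 of 14 was lower, beside 3.22%. The median log2 ratio was -0.18, 0.09 and 0.22 in HCC827, PC9 and H1975. Those medians cover the 20, 16 and 14 genes measured in each line. CDKN1A, itself a p53 target, was counted as a member and not in this list. The part of p53 in its levels was not tested. PHLDA3, an inhibitor of AKT, had the signs of CDKN1A in each line, and its difference between the gefitinib and osimertinib pairs was called by DESeq2 (log2 7.08, adjusted p = 3.04e-07) and not by edgeR (log2 6.99, adjusted p = 0.967). PHLDA3 had 92.3 CPM in HCC827-GR against 57.2 in HCC827, and 47.1 in PC9-GR against 32.8 in PC9. It had 0.0983 CPM in H1975-OR against 8.60 in H1975. The H1975-OR value is 3 reads, the counting floor of that library, so both log2 differences rest on a value at the floor. SESN2, PLK3 and RRM2B, in the same list, had these signs too. Of all tested genes, 26.8% differed one way in both gefitinib lines and the other way in H1975. GDF15, a stress cytokine, had log2 ratios of -1.36, 0.48 and -1.39, and FAS, the death receptor, had 0.02, -0.81 and -1.17. Of 19 tested transcription factors upstream of the G1 genes, 2 were higher in all 3 lines and 0 lower, beside 14.3% and 13.5% of genes. At least 2-fold, 5 of 17 were higher and 1 lower in HCC827-GR, beside 10.5% and 7.66%. In PC9-GR 0 of 19 were higher and 2 lower, beside 2.41% and 1.7%. In H1975-OR 0 of 16 differed 2-fold, beside 1.75% higher and 3.22% lower. KLF6, which activates CDKN1A, had log2 ratios of 1.92, 0.50 and 0.34, JUN, a component of AP-1, had 1.72, 0.12 and -0.02, and KLF4 had -1.61, -0.66 and 0.28.

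Of 16 growth arrest and senescence genes, 4 were higher and 2 lower in all 3 lines, beside 14.3% and 13.5%, and 1 had an unadjusted p under 0.05 in edgeR, beside 3.71%. In HCC827-GR 6 of 15 were higher and 3 lower by 2-fold or more, beside 10.5% and 7.66% of genes. In PC9-GR 2 of 13 were higher and 1 lower, beside 2.41% and 1.7%, and in H1975-OR 1 of 15 was higher and 2 lower, beside 1.75% and 3.22%. IGFBP5 had 33.2 CPM in HCC827-GR and 0 in HCC827, and IL6 had 41.9 CPM in HCC827-GR against 4.14 in HCC827. In the other lines IL6 had log2 ratios of 0.15 in PC9 and 0.38 in H1975.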

How the data were processed

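Total RNA of 6 cultures was made into TruSeq stranded mRNA libraries, per the labels' protocols. Trimmomatic, Bowtie2 and the hg38 build are listed, without roles, per the submitters' processing notes; the counting program, its annotation and its use of strand: not given in the sources used here. The authors deposited, per the file headers, read counts per gene (total, unique, exon-exon and intron), TPM, RPKM and shares of reads as fractions; RPKM and fractions were not used in any result. The whole-series TPM table matched the sample tables within 0.005 TPM. TPM supplied levels between genes and counts supplied all tests. CPM were TMM-normalised in edgeR 4.0.16 (R 4.3.3). The quasi-likelihood test kept genes by filterByExpr (minimum count 10, minimum total 15), with cell line as a block and 2 residual degrees of freedom. The line pairs the libraries, and deviations of the same line correlated at 0.606 to 0.841 across genes. DESeq2 1.42.0, limma-voom 3.58.1, other scalings, filters, read kinds and thresholds were alternatives. The labels name no replicate cultures, so p-values of resistant against parental libraries measure the spread between 3 lines. For the difference between drugs, the residual spread is that of HCC827 against PC9 alone. Within lines no p-value was computed; intervals and the floor of 3 counts cover counting error only, since the labels name no molecular identifiers. All 10 members are named, and of each list the 3 genes whose mean log2 ratio over the lines was farthest from 0 among those at 10 CPM in 1 library, except 1 gene that is not reported here. The edgeR fit was tested on simulated data with a smaller spread than these data, so that check does not give its power here. The members and gene lists were chosen with earlier results of these data known, so their direction is no independent evidence. The lists of gene groups hold 3 D cyclins, 2 kinases, 4 inhibitors and the others counted in the results.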

Additional observations from a re-analysis of the deposited data

Results flagged for a closer look

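The results of 4 genes are read differently in H1975 than in the other lines. CDKN1A, CDKN2B, CCND3 and CDKN1B had log2 ratios of -1.65, -0.54, -0.26 and -0.24 in H1975, while their log2 ratios in HCC827 and PC9 were all above 0 under TMM. With other settings CDKN1B in HCC827 was -0.05 (library size alone), -0.02 (TPM) and -0.13 (intron reads) and in PC9 -0.19 (intron reads), and CDKN2B in PC9 was -0.09 (unique or exon-exon reads) and in H1975 0.10 (intron reads). They were picked out because both gefitinib-selected pairs differed one way and the osimertinib-selected pair the other. The same holds for 26.8% of the 13541 genes tested. The test of the difference itself gave adjusted p = 1.00 for each in edgeR.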

How the results depend on the processing

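edgeR called 0 members and 0 genes under TMM, RLE or library size alone, without the filter, at 10 CPM in 3 libraries, with unique reads and without each line in turn (0 to 0). With no replicate block, so without the pairing by line, it again called 0 of both. DESeq2 called 58 genes across lines and 72 for the difference between drugs. Leaving out each line in turn, log2 fold changes ranged from -0.00246 to 0.37 for CCND3, -0.0214 to 0.142 for CDK4, -0.67 to 0.93 for CDKN1A, -0.11 to 0.11 for CDKN1B, -0.27 to 0.12 for CDKN2B, 0.18 to 0.70 for CDK6, 0.16 to 0.75 for CDKN2C and 0.15 to 0.38 for RB1, with signs reversed for CCND3, CDK4 and CDKN1A (-0.20) without HCC827, CDKN1A without PC9, and CDKN1B and CDKN2B without H1975. The drug difference of CCND1 was 0.00170 with DESeq2 and with RLE, 0.000597 with library size alone and 0.51 with no replicate block. With no replicate block that of CDKN2C was -1.04, of CDK4 3.89 against 0.10, of CDKN1A 1.75 against 2.70, of CDKN1B 0.55 against 0.35, of CDKN2B 1.05 against 0.69 and of RB1 0.76 against 0.26, and with unique reads that of CDKN2B was 1.63. Members at 2-fold in HCC827 numbered 1 with library size alone, with TPM and with 5 CPM added. With intron or exon-exon reads they numbered 0 when 1 CPM was added. With nothing added, the HCC827 ratios of CDK6 and CDKN2C were 2.86 and 2.04 in exon-exon reads and 1.58 and 2.70 in intron reads. Members in PC9 numbered 2 at 1.5-fold and 0 with exon-exon reads, and those in H1975 numbered 0 with intron reads. The exon-exon alternative was chosen after seeing the data. At 50 CPM or more, 17 list genes in HCC827 and 3 in H1975 differed 2-fold, against 27 and 5 at 10 CPM. The higher minimum also leaves fewer genes to count, so these numbers are not shares. With unique reads CCND1 held 80.7%, 87.0%, 85.2% and 83.2% of D cyclin TPM in HCC827-GR, HCC827, PC9-GR and H1975-OR, and CDKN1B 70.1% of inhibitor TPM in HCC827-GR. The causes of these differences were not tested. With 1 library per state, precision within a line is that of counting alone.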

Other observations

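Over the 10148 genes compared across the 6 libraries, DSCAML1 and ARSE were most like CDK4 (Pearson r of 1.00 and 0.999 of log2 CPM with 1 CPM added), and both had reads almost only in HCC827. DSCAML1 had 59.7 CPM in HCC827-GR and 46.9 in HCC827 and 0 reads in the other 4 libraries. CDKN1A was most like CD55 and MAPRE3 (r = 0.971 each), CDKN2C most like PKD2 and PTPRA (r = 0.999 each), and CCND1 most like PAG1 and FECH (r = 0.970 and 0.968). These r values describe 6 libraries that share 3 lines, and with so many genes compared a high r is easily reached.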
